A study of Mus musculus with 2 samples.

Results

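Ndst4, Fras1, Astn2, Tox2, Epha10, Epha3, Fstl4 and Mdga1 are 8 of the 32285 genes counted in each library, and were selected on their UMI levels in pyramidal neurons of hippocampal field CA1, where earlier work on the same counts had found that they split the nuclei. Those levels are therefore given as a description, with no test. What the choice did not use is where else the 8 genes were found, in the other cell classes of the same adult section and in the embryonic brain. Differences from CA1 still rest on the levels used for the choice. Slide-tags marks nuclei of a frozen tissue section with spatial barcodes and then sequences their RNA with droplet-based snRNA-seq. The adult library came from the hippocampus of a male C57BL/6J mouse at 56 days of age, and the embryonic library from the brain of a C57BL/6J embryo at embryonic day 14 (E14), neither with a treatment or a transgene. There was 1 library per tissue, so no difference has a replicate check and no p-value is given. Age, tissue, animal, library and the Cell Ranger version used cannot be told apart.

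CA1 pyramidal neurons form a layer whose deep and superficial cells differ in birth date, gene expression and connections. Calbindin, the product of Calb1, is a textbook marker of the superficial cells. Many of the genes that differ between such neighbouring neurons encode cell-surface or secreted proteins, and the same proteins are used by other neurons elsewhere in the brain.

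The adult library kept 1609 nuclei (median 6607 UMIs) and the E14 library 9036 (median 4204 UMIs) after a filter on low UMI totals and high mitochondrial shares. Only 1 barcode sequence occurred in both libraries. The adult nuclei were clustered without the 8 genes and clusters were named by marker lists, which gave 183 CA1-like, 425 dentate granule-like, 34 CA3-like, 63 thalamic-like, 29 cortical excitatory-like, 43 inhibitory-like, 124 astrocyte-like, 240 oligodendrocyte-like, 27 oligodendrocyte precursor-like, 38 microglia-like and 59 endothelial-like nuclei. All 8 CA1 markers passed in the CA1-like cluster. Levels are UMIs per 1000000 UMIs of a class (CPM), with 95% exact Poisson intervals that cover counting error only. A longer gene can yield more intronic UMIs, so levels are read between classes of nuclei, and a difference in level between genes is not interpreted.

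All 8 genes are annotated as protein-coding (GRCm38 coordinates from GENCODE), and they sort into 2 sides by the CA1 sub-cluster in which each was higher. On the first side, Ndst4 (chr3:125404076-125728899, plus strand) encodes an enzyme that modifies heparan sulfate, and Fras1 (chr5:96373955-96784728, plus strand) an extracellular matrix protein of basement membranes. Astn2 (chr4:65380803-66404611, minus strand) encodes an astrotactin, a membrane protein known from neuronal migration along glia, and Tox2 (chr2:163203125-163324170, plus strand) a nuclear protein with an HMG box. Epha10 (chr4:124880899-124917800, plus strand) encodes an Eph receptor regarded as lacking kinase activity. On the second side, Epha3 (chr16:63543534-63864175, minus strand) encodes an ephrin-A receptor, Fstl4 (chr11:52764634-53188538, plus strand) a secreted follistatin-like protein, and Mdga1 (chr17:29827949-29970087, minus strand) a membrane-anchored protein that binds neuroligins. None of the 8 overlapped another counted gene on its own strand.

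Promoter windows, from 250 bases before to 50 bases after an annotated start, are shown for the long-gene and Eph members of each side, Astn2 and Epha10 of the first and Fstl4 and Epha3 of the second, because the genes of a side were found in the same CA1 nuclei. The sequences are from RefSeq (GRCm38.p6), read 5′ to 3′ on the strand of the gene, and capitals mark the GC box GGGCGG or its reverse complement CCGCCC. The windows are chr4:66404434-66404733 (minus strand) for Astn2, chr4:124881535-124881834 (plus) for Epha10, chr11:52764456-52764755 (plus) for Fstl4 and chr16:63864126-63864425 (minus) for Epha3.
Astn2: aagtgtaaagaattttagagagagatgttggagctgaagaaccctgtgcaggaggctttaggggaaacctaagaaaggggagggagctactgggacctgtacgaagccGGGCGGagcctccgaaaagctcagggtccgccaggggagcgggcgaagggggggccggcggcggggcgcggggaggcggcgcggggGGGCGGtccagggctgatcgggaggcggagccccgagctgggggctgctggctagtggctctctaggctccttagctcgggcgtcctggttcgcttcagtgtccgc
Epha10: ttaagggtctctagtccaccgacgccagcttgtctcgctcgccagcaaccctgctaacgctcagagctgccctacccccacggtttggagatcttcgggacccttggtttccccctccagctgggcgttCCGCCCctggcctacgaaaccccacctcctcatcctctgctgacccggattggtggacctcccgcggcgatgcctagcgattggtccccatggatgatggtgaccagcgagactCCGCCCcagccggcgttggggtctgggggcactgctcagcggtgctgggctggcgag
Fstl4: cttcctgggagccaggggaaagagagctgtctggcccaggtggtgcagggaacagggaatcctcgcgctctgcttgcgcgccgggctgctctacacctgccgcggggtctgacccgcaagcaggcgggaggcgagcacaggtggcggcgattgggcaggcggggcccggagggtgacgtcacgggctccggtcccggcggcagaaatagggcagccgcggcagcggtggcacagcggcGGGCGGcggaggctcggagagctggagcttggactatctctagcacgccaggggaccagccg
Epha3: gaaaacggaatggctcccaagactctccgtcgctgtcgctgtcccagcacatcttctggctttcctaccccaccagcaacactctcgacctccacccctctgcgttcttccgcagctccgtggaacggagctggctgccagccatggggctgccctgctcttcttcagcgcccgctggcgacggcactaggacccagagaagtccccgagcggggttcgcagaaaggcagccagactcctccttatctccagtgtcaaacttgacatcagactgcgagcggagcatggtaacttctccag
GC boxes numbered 2 in the Astn2 window, 2 in the Epha10 window, 1 in the Fstl4 window and 0 in the Epha3 window, and 35.7% of all 32851 promoter windows hold at least 1. The TATA box TATAAA was in none of these 4 windows and in 13.6% of all. The cAMP response element TGACGTCA occurred 1 time, in the Fstl4 window, and is held by 1.79% of all windows. The G and C content of the 4 windows was 66.3%, 65.3%, 71.3% and 60.7% in the order printed, against a median of 52.7% over all windows. A motif was counted on both strands, and a match is a description of the letters only.

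When the 183 CA1-like nuclei were clustered again without the 8 genes, 57 nuclei fell in a smaller sub-cluster (median 19853 UMIs) and 126 in a larger one (median 18262 UMIs). Ndst4, Fras1, Astn2, Tox2 and Epha10 were higher in the smaller sub-cluster, and Epha3, Fstl4 and Mdga1 in the larger. All 8 were past 2-fold, and of 9775 genes with at least 10 CPM in either sub-cluster 3.29% were higher and 3.27% lower by this rule, from which nothing is read since the split chose the genes. Calb1, the superficial marker, had 44.7 CPM (36.5 to 54.1) among nuclei of the larger sub-cluster, against 8.29 CPM (3.98 to 15.3) among those of the smaller. The split depends on the method. With k-means and 2 centres 9 nuclei were set against 174, and 2 of the 8 genes, Fras1 and Tox2, were then past 2-fold, while all 8 differed in the same direction. Spatial coordinates were not used here, so the sub-clusters are called by their size.

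Per nucleus, Ndst4 ran from 0 through a median of 9.40 to 116 UMIs per 10000 in the smaller sub-cluster. In the larger, the range of Ndst4 was 0 to 15.8 with a median of 0.334. The highest Ndst4 nucleus stood far above the median of its sub-cluster, and the 2 ranges overlapped. That nucleus was shallow, with 2853 UMIs and no UMI of Fras1 or Astn2, and the next highest Ndst4 value was 19.6 UMIs per 10000. Summed over nuclei, Ndst4 had 976 CPM (921 to 1034) against 125 CPM (111 to 140), a ratio of 7.84.
Fras1 had a median of 1.46 UMIs per 10000 (0 to 7.10) in the smaller group and 0 (0 to 3.40) in the larger, with 177 CPM (155 to 203) against 24.5 CPM (18.5 to 31.7). For Astn2 the medians were 6.92 (0 to 18.5) and 1.94 (0 to 17.4) UMIs per 10000, and the levels 715 CPM (668 to 764) and 278 CPM (257 to 300). Astn2 was thus common on both sides, with a UMI in 56 of 57 and 99 of 126 nuclei. Tox2 had a UMI in 38 of 57 nuclei of the smaller sub-cluster and 13 of 126 of the larger, with 73.8 CPM (59.3 to 90.8) against 9.45 CPM (5.92 to 14.3). Epha10 medians were 2.33 (0 to 6.89) and 0.506 (0 to 7.75) UMIs per 10000, and its level was 254 CPM (226 to 284) against 84.2 CPM (72.8 to 96.8).

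The second side ran the other way. Epha3 had a median of 0 (0 to 2.79) UMIs per 10000 in the smaller sub-cluster and 2.62 (0 to 14.2) in the larger, with 42.3 CPM (31.5 to 55.6) against 339 CPM (316 to 364). Fstl4 medians were 0 (0 to 7.64) and 1.84 (0 to 7.75), and its levels 62.2 CPM (48.9 to 78.0) and 211 CPM (193 to 231). Of the 75 Fstl4 UMIs in the smaller sub-cluster, 27 lay in 1 nucleus. Mdga1 had medians of 0 (0 to 1.42) and 1.12 (0 to 5.14) UMIs per 10000 and levels of 29.9 CPM (20.9 to 41.3) and 136 CPM (121 to 152). No gene separated the sub-clusters nucleus by nucleus, since the ranges of each of the 8 overlapped.

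**Figure D1:**
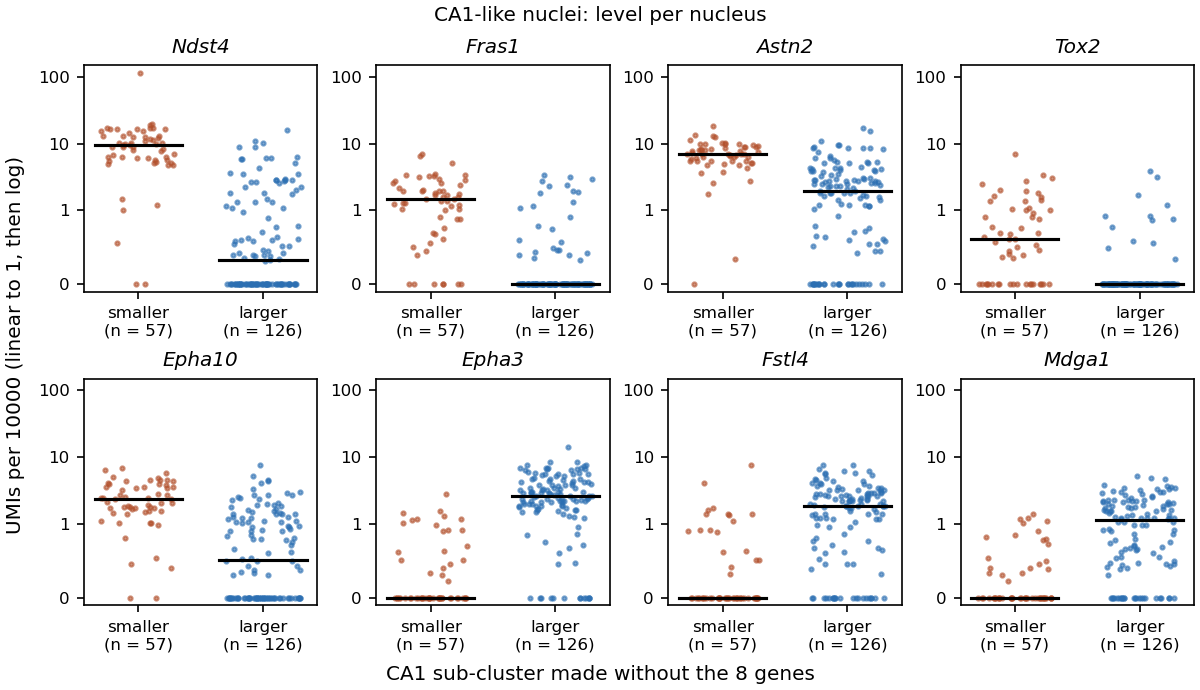
Each point is 1 CA1-like nucleus, the vertical axis gives UMIs per 10000 of the nucleus (linear to 1, logarithmic above) and black lines are medians of the smaller (57 nuclei) and larger (126 nuclei) sub-clusters. The medians of Fras1 and Tox2 lie at 0 in the larger sub-cluster and those of Epha3, Fstl4 and Mdga1 at 0 in the smaller, while the points of every gene overlap between the sub-clusters.

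Pairs of genes were then described by the nuclei in which both had a UMI. The sides come from the sub-clusters of the same nuclei, so the order of the pairs restates the choice of the genes in single nuclei and is no separate evidence. In the 183 CA1-like nuclei, each of the 13 pairs of the same side had an odds ratio above 1 (3.35 to 17.2, median 5.77), and 14 of the 15 pairs of opposite sides had one below 1 (0.156 to 1.02, median 0.304). The exception was Astn2 with Fstl4, at 1.02. It was 0.632 when pooled over 4 strata of UMIs per nucleus, and all 15 were then below 1.
The highest odds ratio belonged to Fras1 with Astn2. Both had a UMI in 75 nuclei, Fras1 alone in 1, Astn2 alone in 80 and neither in 27. Fras1 was thus almost always found beside Astn2, and Astn2 often without Fras1. The lowest belonged to Tox2 with Fstl4, found together in 19 nuclei, Tox2 alone in 32, Fstl4 alone in 105 and neither in 27. On the second side, Epha3 and Fstl4 were together in 107 nuclei, against 28 and 17 with only Epha3 or only Fstl4 and 31 with neither (odds ratio 6.79).
All 5 genes of the first side had a UMI in 29 of the 57 nuclei of the smaller sub-cluster and in 3 of the 126 of the larger. The 3 genes of the second side did so in 4 of 57 and 87 of 126 nuclei. Only 1 CA1-like nucleus had all 8. With each nucleus thinned to 5000 UMIs, which left 175, all 28 pairs kept to this order.

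Dentate granule-like nuclei also contain most of these genes, and there the sides were not apparent. Of 425 such nuclei, same-side pairs had an odds ratio above 1 in 10 of 13 (median 1.29) and opposite pairs in 11 of 15 (median 1.32). Thinned to 5000 UMIs (404 nuclei), no Tox2 UMI was left, and among the other pairs the counts were 5 of 9 and 4 of 12, with medians of 1.05 and 0.907. Ndst4 with Fras1, which had an odds ratio of 8.52 in CA1-like nuclei, had 1.83 in dentate granule-like nuclei and 1.31 over the strata of depth. Ndst4 with Fstl4 stood at 0.243 in CA1-like and at 3.08 in dentate granule-like nuclei, and at 0.116 and 1.74 over the strata of depth. In the thinned dentate granule-like nuclei, Ndst4 with Fras1 had 1.05 and Ndst4 with Fstl4 1.20. Before thinning, pairs with Tox2 rest on only 2 dentate granule-like nuclei with a Tox2 UMI. Since the genes were chosen in CA1, the difference between the fields is a description.

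**Figure D2:**
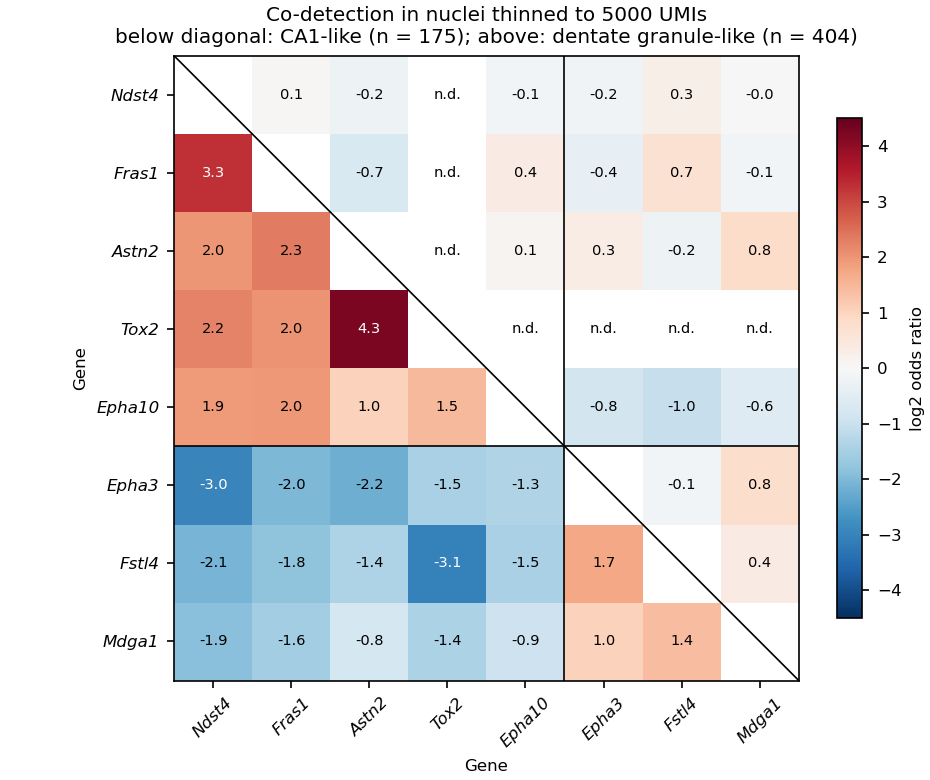
Colours and numbers are log2 odds ratios of finding a UMI of both genes in a nucleus thinned to 5000 UMIs, below the diagonal in 175 CA1-like and above it in 404 dentate granule-like nuclei, and black lines part the first 5 genes from the other 3. Below the diagonal the same-side blocks are positive and the opposite-side block negative, and above it no such blocks appear. Pairs marked n.d. have no value, since no thinned dentate granule-like nucleus held a Tox2 UMI.

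Beyond CA1, the 8 genes had no highest adult class in common, and for 5 of them CA1 was not the highest class. All 8 were 2-fold or more below CA1-like nuclei in endothelial-like (17.3% of all genes were) and oligodendrocyte-like nuclei (22.7%). The genes were chosen on their CA1 levels, which are the reference here, so nothing is read from how many were lower. Fras1 was highest in thalamic-like, Astn2 and Tox2 in inhibitory-like, Epha3 in CA3-like and Fstl4 in dentate granule-like nuclei, while Ndst4, Epha10 and Mdga1 were highest in CA1-like nuclei. Of 10584 genes with at least 10 CPM in the library, 96.2% had their highest class outside CA1. In the sum of endothelial-like, microglia-like and oligodendrocyte-like nuclei (337 nuclei), which served as background, levels ran from 0.757 CPM for Tox2 to 61.3 CPM for Astn2. For Astn2 the 3 classes were not alike, from 0 CPM in microglia-like to 70.8 CPM in oligodendrocyte-like nuclei, so its sum is not a uniform background. Other classes near these values are not read as expression. CA1-like levels below are sums over both sub-clusters, which differ in each of the 8 genes as given above.

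**Figure D3:**
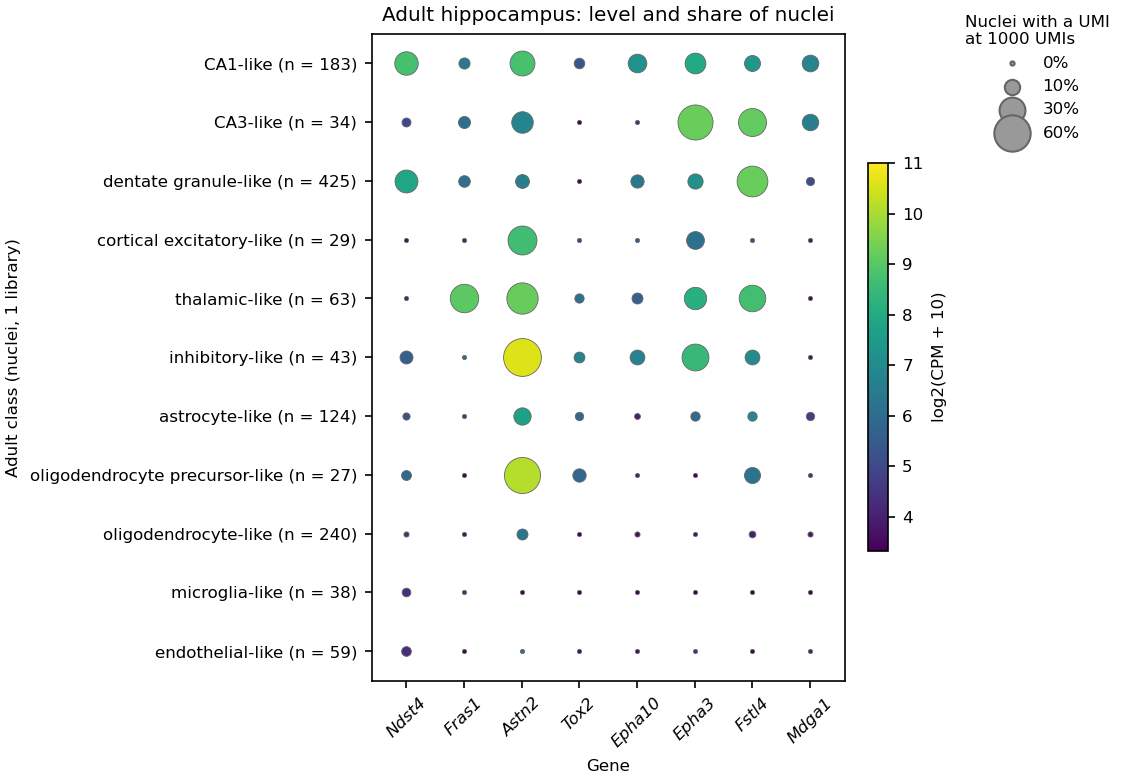
Each circle is 1 gene (columns) in 1 adult class (rows, with the number of nuclei), coloured by log2(CPM + 10), with an area that grows with the share of nuclei holding a UMI after thinning to 1000 UMIs. Circles of Ndst4 are large in CA1-like and dentate granule-like rows, those of Fras1 in the thalamic-like row, those of Epha3 in the CA3-like row, and all 8 are small in the microglia-like and endothelial-like rows.

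Ndst4 had 1467 UMIs in CA1-like nuclei, or 415 CPM (394 to 437), and 225 CPM (212 to 237) in dentate granule-like nuclei. Every other class lay below 50 CPM, and the oligodendrocyte precursor-like (49.6 CPM, 21.4 to 97.7), inhibitory-like (38.7 CPM, 24.3 to 58.6), astrocyte-like (26.7 CPM, 17.3 to 39.4) and CA3-like levels (22.3 CPM, 12.7 to 36.2) did not differ beyond their intervals. Between the hippocampal fields, the CA3-like level was 0.0537 times that of CA1-like nuclei (0.0306 to 0.0874). The CA3-like level rests on 16 Ndst4 UMIs in 6 nuclei, with 43.75% of them in the highest nucleus. With classes from marker UMIs it was 5.93 CPM (1.62 to 15.2). Among thalamic-like nuclei Ndst4 was at 6.63 CPM (3.03 to 12.6). A UMI of Ndst4 was found in 65.6% of CA1-like nuclei (median 18740 UMIs) and in 2.92% of oligodendrocyte-like nuclei (median 3050.5 UMIs). At 1000 UMIs per nucleus these shares were 24.6% (18.5 to 31.5, exact binomial) and 0.435% (0.0110 to 2.40), after 10 oligodendrocyte-like nuclei were left out as too shallow, and the dentate granule-like share was 23.3%.

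Fras1 reached 523 CPM (485 to 563) in thalamic-like nuclei, 6.82 times its CA1-like level (5.92 to 7.87), and 57 of 63 thalamic-like nuclei had a UMI of it. Summed over whole hippocampal classes, Fras1 had 76.7 CPM (67.8 to 86.4) in CA1-like, 61.2 CPM (54.9 to 68.0) in dentate granule-like and 59.9 CPM (43.3 to 80.6) in CA3-like nuclei. Inhibitory-like nuclei had 59.8 CPM (41.4 to 83.6), but 19 of their 34 Fras1 UMIs lay in 1 nucleus. These 4 levels had overlapping intervals, and the dentate granule-like level was 0.798 times the CA1-like one (0.679 to 0.939). Within classes Fras1 was not even. It was past 2-fold between the CA1 sub-clusters, and between the clusters that make up the dentate granule-like class. At 1000 UMIs, 36.5% of thalamic-like and 4.92% of CA1-like nuclei had a Fras1 UMI.

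Astn2 was found in neuronal and glial classes. Inhibitory-like nuclei had 1527 CPM (1428 to 1633), oligodendrocyte precursor-like nuclei 1128 CPM (970 to 1304) and thalamic-like nuclei 589 CPM (549 to 631). The smaller CA1 sub-cluster alone had a higher Astn2 level than thalamic-like nuclei, as given above. CA1-like nuclei, at 427 CPM (406 to 449), and cortical excitatory-like nuclei, at 394 CPM (340 to 454), did not differ beyond their intervals. Next came astrocyte-like nuclei at 200 CPM (172 to 230), CA3-like nuclei at 102 CPM (79.7 to 128) and dentate granule-like nuclei at 87.0 CPM (79.5 to 95.0). The dentate granule-like interval overlapped that of oligodendrocyte-like nuclei, at 70.8 CPM (53.9 to 91.3). At 1000 UMIs, the shares of nuclei with an Astn2 UMI were 65.1% in inhibitory-like, 27.9% in CA1-like, 8.02% in dentate granule-like and 4.78% in oligodendrocyte-like nuclei. Of the 29 cortical excitatory-like nuclei, 10 had more markers of another class. Microglia-like nuclei had 0 Astn2 UMIs of 94234, which by the limit of 3 counts used here for a 0 allows up to 31.8 CPM, a level at least 13.4-fold lower than in CA1-like nuclei.

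Tox2 was highest in inhibitory-like nuclei, at 95.0 CPM (71.4 to 124), followed by thalamic-like (58.9 CPM, 46.7 to 73.3), oligodendrocyte precursor-like (49.6 CPM, 21.4 to 97.7), astrocyte-like (49.1 CPM, 35.9 to 65.5) and CA1-like nuclei (31.4 CPM, 25.8 to 37.8). From thalamic-like to CA1-like nuclei each interval overlapped the next. The smaller CA1 sub-cluster alone, as given above, had a Tox2 interval that overlapped those of inhibitory-like and thalamic-like nuclei. In the other hippocampal excitatory classes Tox2 was at or near 0 UMIs. Dentate granule-like nuclei held 2 UMIs (0.351 CPM, 0.0425 to 1.27), a ratio to CA1-like nuclei of 0.0112 (0.00134 to 0.0413). CA3-like nuclei held 0 of 718341 UMIs, which allows up to 4.18 CPM and puts the level at least 7.52-fold lower than in CA1-like nuclei. Oligodendrocyte-like nuclei held 0 Tox2 UMIs too. After thinning to 1000 UMIs, a Tox2 UMI was left in 4.65% of inhibitory-like, 4.37% of CA1-like and 3.17% of thalamic-like nuclei. The CA1-like share rests on 8 of 183 nuclei (1.91% to 8.43%), and the inhibitory-like and thalamic-like shares on fewer.

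Epha10 was highest in CA1-like nuclei, at 142 CPM (130 to 155). Inhibitory-like nuclei had 96.8 CPM (72.9 to 126) and dentate granule-like nuclei 75.7 CPM (68.8 to 83.2), whose intervals overlapped. Thalamic-like (41.2 CPM, 31.1 to 53.5) and cortical excitatory-like nuclei (39.6 CPM, 23.8 to 61.9) came next. Epha10 was low in CA3-like nuclei, at 11.1 CPM (4.81 to 21.9), 12.8-fold below CA1-like nuclei. Its share of nuclei at 1000 UMIs was 15.3% in CA1-like and 0.435% in oligodendrocyte-like nuclei.

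Epha3 gave another order, with 596 CPM (541 to 655) in CA3-like nuclei, 343 CPM (297 to 395) in inhibitory-like, 283 CPM (256 to 313) in thalamic-like and 238 CPM (222 to 255) in CA1-like nuclei. The inhibitory-like and thalamic-like intervals overlapped. Dentate granule-like nuclei had 136 CPM (126 to 146). The CA3-like level was 2.50 times that of all CA1-like nuclei (2.22 to 2.82). Both Eph receptors among the 8 genes were thus present in CA1-like nuclei, and in CA3-like nuclei Epha3 was high and Epha10 low. At 1000 UMIs, 55.9% of CA3-like, 19.1% of CA1-like and 0 of 230 oligodendrocyte-like nuclei had an Epha3 UMI, where 0 allows a share of up to 1.30%.

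Fstl4 was highest in dentate granule-like nuclei, at 601 CPM (581 to 621), and CA3-like nuclei, at 560 CPM (506 to 617), did not differ from them beyond the intervals. The dentate granule-like level was 3.74 times the CA1-like one (3.42 to 4.10), with a UMI in 399 of 425 nuclei. Thalamic-like nuclei had 398 CPM (365 to 433), CA1-like nuclei 160 CPM (147 to 174), inhibitory-like nuclei 114 CPM (88.3 to 146) and astrocyte-like nuclei 112 CPM (91.6 to 136). Only 12 of 124 astrocyte-like nuclei had a Fstl4 UMI. In this cluster 15 nuclei had more markers of another class, 8 of them of dentate granule cells. Without those 15, in an alternative chosen after seeing the data, the Fstl4 CPM in adult astrocyte-like nuclei was 78.2. With classes from marker UMIs it was 46.3 CPM (32.1 to 64.7), from 3 of 142 nuclei, and 55.9% of the UMIs lay in 1 nucleus.

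Mdga1 was highest in CA1-like nuclei, at 99.6 CPM (89.5 to 111), and the CA3-like level of 86.3 CPM (66.2 to 111) did not differ beyond the intervals. Dentate granule-like nuclei had 23.5 CPM (19.7 to 27.8). Every class outside the hippocampal excitatory ones was at or below the 17.1 CPM (9.76 to 27.7) of astrocyte-like nuclei. Thalamic-like nuclei had 2 UMIs (ratio to CA1-like nuclei 0.0148, 0.00178 to 0.0538) and inhibitory-like nuclei 2 (ratio 0.0353, 0.00426 to 0.129). At 1000 UMIs, 12.0% of CA1-like, 11.8% of CA3-like, 2.36% of dentate granule-like and 0.435% of oligodendrocyte-like nuclei had a Mdga1 UMI.

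Counted by a 2-fold difference from CA1-like nuclei, among genes with at least 10 CPM in either class, the members differed between most classes. In dentate granule-like nuclei 1 gene was higher, Fstl4 (10.9% of all genes were), and 3 were lower, Astn2, Tox2 and Mdga1 (7.60%). In CA3-like nuclei 2 were higher, Epha3 and Fstl4 (9.36%), and 4 lower, Ndst4, Astn2, Tox2 and Epha10 (9.87%). All 4 genes lower in CA3-like nuclei belong to the first side and both higher ones to the second. Thalamic-like nuclei had 2 higher, Fras1 and Fstl4 (16.6%), and 3 lower, Ndst4, Epha10 and Mdga1 (13%), so both sides were found in either direction. Inhibitory-like nuclei had 2 higher, Astn2 and Tox2 (19.5%), and 2 lower, Ndst4 and Mdga1 (10.5%). Oligodendrocyte precursor-like nuclei had 1 higher, Astn2 (32.2%), and 6 lower (9.52%). None was higher in cortical excitatory-like (19.8%), astrocyte-like (28.3%), oligodendrocyte-like (26.5%), endothelial-like (40.0%) or microglia-like nuclei (53.2%). In these 5 classes 6 (9.00%), 6 (13.5%), 8 (22.7%), 8 (17.3%) and 7 (9.58%) of the 8 genes were lower, in the same order. Since CA1 levels chose the genes, the counts of lower genes are a description from which nothing is read.

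The dentate granule-like nuclei came as 2 clusters, of 217 and 208 nuclei, and some of the 8 genes differed between them. Fstl4 had 774 CPM (741 to 808) in the second and 450 CPM (426 to 474) in the first, and Fras1 83.7 CPM (73.0 to 95.4) and 41.6 CPM (34.7 to 49.5). Epha10 was lower in the second cluster, at 42.6 CPM (35.1 to 51.2) against 105 CPM (93.4 to 117), as was Mdga1, at 15.1 CPM (10.8 to 20.5) against 30.8 CPM (24.9 to 37.7). Ndst4 was level, at 226 and 224 CPM, and Astn2 at 84.8 and 88.8 CPM. So Fras1 was higher in the same dentate cluster as Fstl4, which in CA1-like nuclei lies on the opposite side, and Epha10 was lower together with Mdga1, again across sides. Of the 7 genes with at least 10 CPM in either cluster, all but Tox2, 1 was past 2-fold higher, Fras1 at a ratio of 2.01 (1.61 to 2.52), beside 1.79% of all genes, and 2 were lower, Epha10 and Mdga1, beside 1.91%. The clusters were made without the 8 genes but from the same nuclei, so these values are a description. Calb1, which in CA1-like nuclei was higher on the second side, had 120 CPM in the second dentate cluster and 236 CPM in the first.

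The families of the 8 genes were looked at by a list of 38 further genes, of which 22 had at least 10 CPM in either CA1 sub-cluster. Between the sub-clusters, 2 of the 22 were past 2-fold higher in the smaller, 1 was past 2-fold lower and 19 were neither, beside 3.29% higher and 3.27% lower of all genes compared. The 2 higher were paralogs of Tox2. Tox had 58.9 CPM (46.0 to 74.3) in the smaller against 10.3 CPM (6.60 to 15.3) in the larger sub-cluster, and Tox3 36.5 CPM (26.5 to 49.0) against 14.6 CPM (10.1 to 20.4), while Tox4 had 53.1 and 66.1 CPM. Of 12 Eph receptors other than Epha3 and Epha10, 7 could be compared and 1 was past 2-fold, Ephb3, at 12.4 CPM (6.96 to 20.5) in the smaller and 27.5 CPM (21.2 to 35.1) in the larger sub-cluster. Epha6 had 7195 CPM in the smaller and 6626 CPM in the larger, a ratio within 2-fold, unlike those of Epha3 and Epha10. None of the 3 ephrins that could be compared, of 8, passed. Ndst3, an enzyme of the Ndst4 family, had 378 and 308 CPM, Astn1 322 and 336 CPM, and Mdga2 1174 and 1170 CPM.

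**Figure D4:**
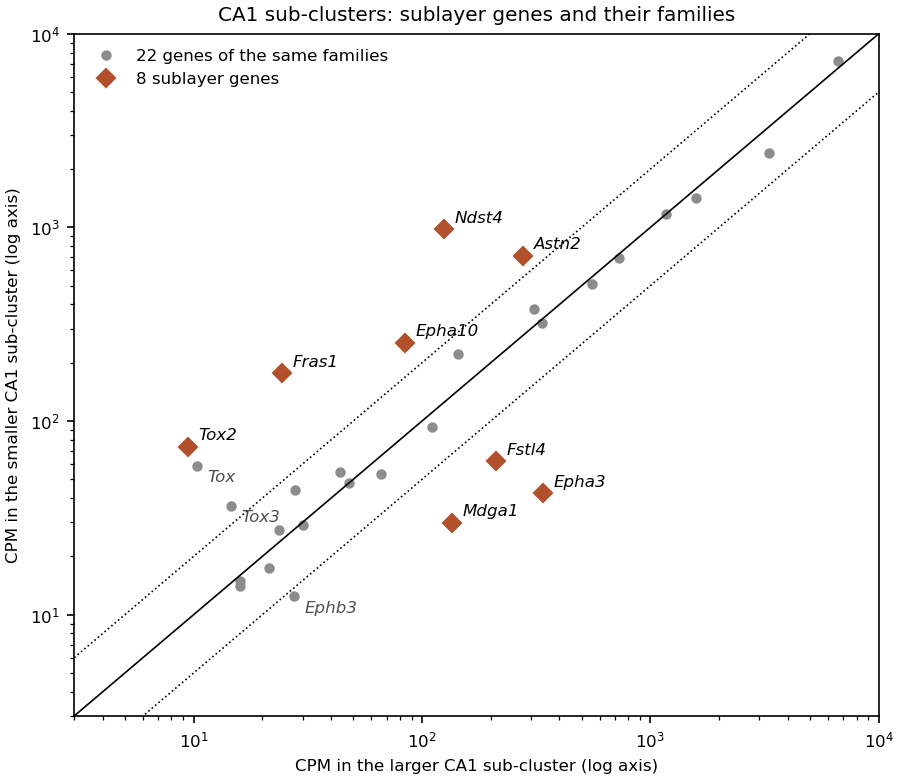
Each point is 1 gene, by its CPM in the larger (horizontal) and smaller (vertical) CA1 sub-cluster on log axes, with the 8 genes as diamonds and 22 family genes as circles, and dotted lines at 2-fold. The 8 diamonds lie outside the dotted lines because they were chosen for this, and of the 22 circles Tox, Tox3 and Ephb3 lie outside them.

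For each gene, up to 2 genes of most similar pattern over the 11 adult classes were sought among 8924 genes with at least 50 CPM in a class, by Pearson's r of log2(CPM + 10). All classes come from 1 library, and r is given as a description. Ndst4 was most like Lmo1 (0.88) and Slc24a4 (0.87), Fras1 like 1700080N15Rik (0.91) and AI593442 (0.90), and Astn2 like Gm26691 (0.93) and H2afy2 (0.93). Tox2 was most like Gm15520 (0.94) and 9630014M24Rik (0.93), and Epha10 like March4 (0.96). On the second side, Epha3 was most like Tmem59l (0.96) and Rhbdl1 (0.94), Fstl4 like Syndig1 (0.96), and Mdga1 like Hpca (0.93) and Evc2 (0.91). None of the genes found in this way was another of the 8. Among the 8 themselves, Astn2 with Tox2 had 0.86 and Epha3 with Fstl4 0.81, but so had Fras1 with Epha3 (0.80), a pair from opposite sides.

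In the E14 brain each nucleus took the class of which most different markers had a UMI, with at least 3 and 1 more than any other list, and no member was a marker. This gave a class to 4656 of 9036 nuclei and left 4380 unassigned, and the 14 classes with at least 25 nuclei are described. All 8 genes were detected, from 868 UMIs of Epha10 (14.7 CPM) to 37848 of Astn2 (642 CPM). Levels in non-neural nuclei were high. The sum of endothelial-like, fibroblast or mesenchyme-like, microglia or macrophage-like and mural-like nuclei (500 nuclei) had 307 CPM of Astn2 (290 to 325) and 242 CPM of Epha3 (226 to 258), and the 8 genes stood there at 0.424 to 0.717 times their library levels. The ratio of Astn2 to Epha3 UMIs was 1.26 in endothelial-like, 1.23 in fibroblast or mesenchyme-like, 1.26 in microglia or macrophage-like, 1.44 in choroid plexus-like and 2.04 in mural-like nuclei, against 1.29 in all nuclei and 0.199 in cortical excitatory-like nuclei. Some neural classes lay below the non-neural sum, such as hypothalamic-like nuclei for Epha3, so the sum is not the lowest level a class can have. How much of these levels is free RNA was not tested, and a level near the non-neural sum is not read as expression.

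Against the library level, 6 of the 8 genes were 2-fold or more higher in at least 1 class, as were 34.0% of 10665 genes with at least 10 CPM. Epha3 was so in cortical excitatory-like nuclei (1.96% of genes were), Fras1 in choroid plexus-like nuclei (7.55%) and Ndst4 and Mdga1 in Cajal-Retzius-like nuclei (1.33%). Fras1 and Fstl4 were so in GABAergic-without-Dlx-like nuclei (3.34%) and Tox2 in hypothalamic-like nuclei (2.39%). Astn2 and Epha10 were past 2-fold in no class. The GABAergic-without-Dlx-like class is named after its marker list, and a UMI of a Dlx gene did not exclude a nucleus from it.

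Epha3 had 3334 UMIs, or 1595 CPM (1541 to 1650), in 223 cortical excitatory-like nuclei, 3.49 times the level of all other nuclei (3.36 to 3.62). A UMI was found in 79.8% of them (median 6308 UMIs) and in 28.8% of endothelial-like nuclei (median 7922 UMIs), and at 1000 UMIs in 56.5% and 11.7%. Thalamic-like nuclei had 743 CPM (723 to 764), Cajal-Retzius-like nuclei 579 CPM (537 to 623) and radial glia-like nuclei 483 CPM (463 to 503). Hypothalamic-like nuclei, at 51.9 CPM (30.2 to 83.0), lay below the non-neural sum, and 50 of the 51 were at the limit of the marker rule, by 3 markers in all or 1 more than the next list. Epha10, the other Eph receptor of the list, had only 6 UMIs in cortical excitatory-like nuclei (2.87 CPM, 1.05 to 6.25).

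Fras1 stood out in the choroid plexus, the epithelium that makes cerebrospinal fluid, with 643 CPM (586 to 704) and a UMI in 49 of 53 nuclei. The level was 10.1 times that of all other nuclei (9.20 to 11.2). GABAergic-without-Dlx-like nuclei had 195 CPM (139 to 265) and radial glia-like nuclei 136 CPM (125 to 147) against a highest non-neural class of 57.1 CPM, microglia or macrophage-like nuclei. Neurons of the cortex and thalamus were lower, at 68.9 CPM (58.1 to 81.1) in cortical excitatory-like and 56.6 CPM (51.2 to 62.4) in thalamic-like nuclei. At E14 the thalamic-like nuclei thus lay below the library level of 70.5 CPM, while in the adult library that class was the highest. The E14 class was mixed. Of its 963 nuclei, 516 were at the limit of the marker rule and 464 lay in cluster 5, the cluster named thalamic.

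Ndst4 and Mdga1, which lie on opposite sides in CA1, were both highest, of the 14 classes, in Cajal-Retzius-like nuclei, named for the reelin-secreting neurons of the cortical surface. There Ndst4 had 231 CPM (205 to 259), 3.20 times the other nuclei (2.83 to 3.61), and Mdga1 219 CPM (194 to 246), 2.74 times (2.42 to 3.10). The class was mixed, with 91 of its 180 nuclei in cluster 19, led by Reln and Trp73. In cluster 19 Ndst4 had 150 CPM and Mdga1 240 CPM (206 to 278). Cluster 6 (509 nuclei, unnamed, with Tenm1, Olfm3 and Ndst4 itself among its leading genes although clustering left Ndst4 out) had the highest Ndst4 level of any E14 cluster, 316 CPM (297 to 336). Mdga1 had 212 CPM (198 to 226) in cluster 2 (657 nuclei, led by Sim1), 153 CPM (113 to 201) in hypothalamic-like and 141 CPM (125 to 158) in cortical excitatory-like nuclei.

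The GABAergic-without-Dlx-like nuclei are a weak class, since 29 of the 31 were at the limit of the marker rule. The class had a median of 3 own markers against 2 of the forebrain GABAergic list, which includes Dlx genes. Of the 31, 25 lay in cluster 1, which also held the most forebrain GABAergic-like nuclei, 341. The 31 nuclei had 180 CPM of Fstl4 (127 to 248), with a UMI in 8 of them. Cortical excitatory-like nuclei had 31.1 CPM (24.0 to 39.6), with an interval that overlapped the non-neural sum of 36.7 CPM (30.8 to 43.3). Tox2 had 116 CPM (82.0 to 159) in hypothalamic-like, 112 CPM (71.0 to 168) in GABAergic-without-Dlx-like and 88.8 CPM (77.0 to 102) in migrating interneuron-like nuclei, against a non-neural sum of 26.4 CPM (21.5 to 32.1). These 3 intervals overlapped. Of the 385 migrating interneuron-like nuclei 308 were at the limit of the marker rule, and the cluster with most of them, cluster 10, held 111. Of the 14 classes Astn2 was highest in GABAergic-without-Dlx-like nuclei, at 935 CPM (807 to 1077), and striatal-like nuclei, at 887 CPM (822 to 955), did not differ beyond the intervals. Of the 108 striatal-like nuclei 94 were at the limit of the marker rule, and the cluster with most of them, cluster 2, held 30. Cortical excitatory-like nuclei had 318 CPM of Astn2 (294 to 343), with an interval that overlapped the non-neural sum. Cluster 12 (352 nuclei, led by Lhx8) had 1446 CPM of Astn2 (1393 to 1499), the highest of the E14 clusters. Epha10 did not pass 24.3 CPM in any class, and its highest cluster was cluster 6, at 43.1 CPM (36.3 to 50.9), so Epha10, Ndst4 and Fstl4 (142 CPM, 129 to 155) were all highest in the same E14 cluster.

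**Figure D5:**
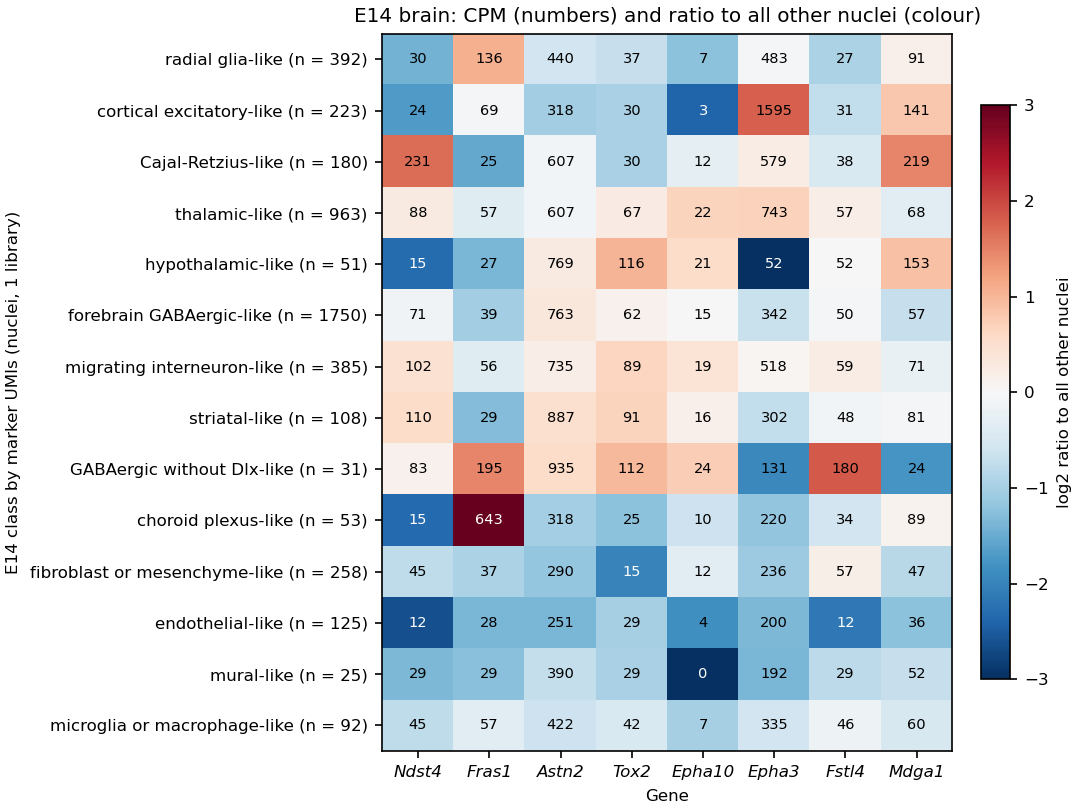
Numbers are CPM of each gene (columns) in 14 E14 classes set by marker UMIs (rows, with the number of nuclei), and colour is the log2 ratio to all other nuclei, limited to 3 either way. The reddest cells are Fras1 in choroid plexus-like (643 CPM), Epha3 in cortical excitatory-like (1595 CPM), Fstl4 in the 31 GABAergic-without-Dlx-like (180 CPM) and Ndst4 in Cajal-Retzius-like nuclei (231 CPM).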

How the data were processed

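Slide-tags snRNA-seq of mouse hippocampus and of E14 mouse brain was used, 1 library each. The values are UMI counts per gene and nucleus, deposited by the authors as Cell Ranger wrote them, aligned to mm10 with intronic reads and not normalized. The file headers give Cell Ranger 6.1.2 (hippocampus) and 7.0.1 (E14). CellBender is named for the embryo in the study's methods, but the E14 matrix has a Cell Ranger header, so whether free RNA was removed from it cannot be told.

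The 8 genes, the marker lists (15 adult, 16 E14) and the family list were chosen with earlier results of these data known. The filter asked for 500 or more UMIs and a mitochondrial share below 5%, which left 1609 of 1661 nuclei (15346746 UMIs) and 9036 of 9037 (58923882 UMIs). Seurat 5.3.0 scaled counts to 10000, took 2000 variable genes without the 8, 30 components and a resolution of 0.8. A cluster was named after a list with at least 4 markers found in at least 10% of its nuclei and 2-fold higher there than elsewhere. Clusters of few UMIs with a median mitochondrial share above 1% stayed unnamed (3 clusters of 207, 77 and 60 nuclei, whose best lists were CA1, astrocyte and thalamic). This rule, and the choice of leading genes among those in at least 25% of nuclei, were set after the first clusters had been seen. CA1-like nuclei were clustered again with 1000 variable genes, 25 components and a resolution of 0.5.

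Levels are summed UMIs with exact Poisson intervals, and shares have exact binomial intervals, both at 95%. Thinning drew 1000 UMIs per nucleus (5000 for pairs of genes). A 0 was set to 3 counts for folds. Odds ratios had 0.5 added to each count, and odds ratios over strata were pooled by Mantel-Haenszel. Named genes are the 8, the family list, Calb1 and, for each of the 8, the 2 genes of highest Pearson r, of which 2 in all are not reported here. Scrublet (scanpy 1.11.5) marked 6 and 4 nuclei by itself and was taken not to have worked. The 21 and 653 nuclei of highest score were kept and left out in an alternative. The functions were tested on simulated data. With 1 library per tissue no test was run. Spatial positions were not used here.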

Additional observations from a re-analysis of the deposited data

How the results depend on the processing

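With 1 library per tissue, no replicate could be left out. No paired analysis was possible because each tissue has 1 library and the values come from no test. Counts of genes kept within 1.5 times of the reported ones except under 2 settings. When the CA1-like nuclei were split by k-means with 2 centres, into 9 and 174, 2 of the 8 genes were past 2-fold, against 8 with the sub-clusters, and the cause was not tested. At 4-fold in place of 2-fold, 1 gene and class pair was higher than CA1-like nuclei, against 8. The number of genes with a highest adult class other than CA1 was 5 under all 9 alternatives. The number past 2-fold of the E14 library level was 6, and 4 with 4 markers, with a margin of 2 markers or with clusters as classes, where Tox2 and Fstl4 were no longer counted. Of 28 pairs, 27 followed the order of sides, and 22 to 28 did so under the 4 alternatives, the lowest with CA1-like nuclei taken from marker UMIs. Levels that left their interval numbered 23 of 88 with adult classes from marker UMIs and at most 5 of 88 under any other adult setting. At E14 they numbered 41 of 72 with clusters as classes, 38 of 88 with a margin of 2 markers, 14 of 104 without likely doublets and 11 of 80 with 4 markers. The settings that named clusters of few UMIs and that left out nuclei with other markers were chosen after seeing the data. Depth limits the classes of few UMIs most, since a 0 in microglia-like nuclei still allows 31.8 CPM.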
